A study of Mus musculus with 4 samples.

Results

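MHC class I antigen processing and presentation was read from 10 genes, taken by symbol from the 31053 genes of the deposited feature table: the heavy chains H2-K1 and H2-D1, the light chain B2m, the peptide transporter Tap1 and Tap2, tapasin (Tapbp), the immunoproteasome subunits Psmb8, Psmb9 and Psmb10, and the regulator Nlrc5. All 10 were found, and all 10 had unique molecular identifiers (UMIs, one for each captured transcript molecule) in the tumour cells of every library. KP lung tumour cells, named KrasG12DP53-/- in the series title, had been injected into a vein of B6 mice, in whose lungs they form tumours. The tumour cells were either knocked out for Asf1a, a histone chaperone gene (KO), or wild type for it (WT), and the mice received anti-PD-1, an antibody that blocks an inhibitory receptor of T cells (clone 29F.1A12, 200 µg per mouse, given 3 times each week over 1 week), or an isotype IgG. The 4 groups were KO tumours with anti-PD-1, KO tumours with IgG, WT tumours with anti-PD-1 and WT tumours with IgG. Whole perfused lungs were digested, live cells were sorted with DAPI, and each group was measured as 1 library with the 10x Genomics 3′ v2 kit. The labels give neither the age of the mice, nor how many mice entered a library, nor how many KO clones were used. The knockout lies in the injected tumour cells, and the host cells around them are those of B6 mice in all 4 groups.

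Class I molecules carry peptides from inside a cell to its surface, where CD8 T cells read them. The proteasome cuts proteins into peptides, the Tap1 and Tap2 transporter moves these into the endoplasmic reticulum, and tapasin holds an empty heavy chain with B2m next to the transporter until a peptide binds. Under interferon gamma the catalytic subunits of the standard proteasome are replaced by the immunoproteasome subunits, and Nlrc5, which has no DNA-binding domain of its own, joins factors at the promoters of class I genes and raises their transcription. Loss of these genes in tumour cells is a known route of escape from T cells, and their transcription in tumours is known to follow interferon gamma from T cells and NK cells.

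Promoter windows are printed for 4 members. The heavy chains, B2m and the Tap1 and Psmb9 pair differ in their exact matches to short motifs known from class I genes. Sequences are from RefSeq, build GRCm38.p6, from 250 bases before to 50 bases after the start, written 5′ to 3′ on the gene's strand with motif matches in capitals. H2-K1 is at chr17:34000298-34000597 on the minus strand (the first of 2 listed starts), H2-D1 at chr17:35262844-35263143 on the plus strand, B2m at chr2:122147437-122147736 on the plus strand and Tap1 at chr17:34187306-34187605 on the plus strand.
H2-K1: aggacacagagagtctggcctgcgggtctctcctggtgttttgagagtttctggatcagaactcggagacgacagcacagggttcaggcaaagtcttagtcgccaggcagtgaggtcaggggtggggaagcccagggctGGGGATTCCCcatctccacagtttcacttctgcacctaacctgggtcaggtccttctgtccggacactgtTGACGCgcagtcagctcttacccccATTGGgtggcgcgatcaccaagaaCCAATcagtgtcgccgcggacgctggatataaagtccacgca
H2-D1: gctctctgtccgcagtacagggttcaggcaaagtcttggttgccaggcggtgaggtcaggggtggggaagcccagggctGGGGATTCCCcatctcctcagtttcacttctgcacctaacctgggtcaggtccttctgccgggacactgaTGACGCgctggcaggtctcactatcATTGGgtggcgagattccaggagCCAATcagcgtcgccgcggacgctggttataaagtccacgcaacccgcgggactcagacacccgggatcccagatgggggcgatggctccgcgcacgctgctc
B2m: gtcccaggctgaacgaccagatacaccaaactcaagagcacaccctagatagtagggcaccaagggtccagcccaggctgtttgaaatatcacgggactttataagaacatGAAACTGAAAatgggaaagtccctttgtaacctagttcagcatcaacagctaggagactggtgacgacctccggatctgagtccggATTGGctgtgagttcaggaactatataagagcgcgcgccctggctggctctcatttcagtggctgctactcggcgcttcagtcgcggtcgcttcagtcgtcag
Tap1: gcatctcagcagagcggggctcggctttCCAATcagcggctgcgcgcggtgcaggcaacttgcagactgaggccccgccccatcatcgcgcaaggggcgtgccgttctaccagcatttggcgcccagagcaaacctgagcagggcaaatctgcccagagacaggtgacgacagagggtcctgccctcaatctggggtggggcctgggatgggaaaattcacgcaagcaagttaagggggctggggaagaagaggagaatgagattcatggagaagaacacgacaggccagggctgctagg
Motifs were searched on both strands, and the matches in the printed windows do not overlap one another. Both heavy chain windows hold the kB motif bound by NF-kB, which is the first run of capitals in each, a TGACGC match of the kind bound by CREB and ATF proteins, and CCAAT matches on both strands, in the same order. The kB motif starts 111 bases before the first listed H2-K1 start, 125 bases before the second and 171 bases before the H2-D1 start. TGACGC starts 41, 55 and 101 bases before the same starts. These distances depend on the start that is listed. It occurs in 28 of 27025 windows of this length over all genes, or 0.104%, while TGACGC occurs in 7.5% and CCAAT, the motif of NF-Y, in 37.9%. The B2m window holds an interferon-stimulated response element, searched as GAAA, 2 bases of any kind and GAAA and read there as GAAACTGAAA, which occurs in 3.49% of windows. The Tap1 window runs into that of Psmb9, which lies on the opposite strand, and the windows share 275 bases. The interferon gamma activated site, searched as TTCNNNGAA with N any base, was matched 97 bases before the Psmb8 start. It occurs in 8.47% of windows. Psmb10 holds none of the motifs searched. Windows were at hand for 8 of the 10 members. A match is a description of letters and does not show binding. Only the letters named were searched, so related forms of a motif stay unmarked. A window without a match may still hold such a form, also of an interferon element.

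After filtering there were 5595, 5919, 6187 and 5659 cells in KO anti-PD-1, KO IgG, WT anti-PD-1 and WT IgG. Tumour cells numbered 131, 221, 112 and 121 in that order, with 1926600, 2824345, 1786429 and 1925458 UMIs and a median of 9207, 9855, 10125 and 10618 UMIs per cell. The tumour class was named with a list of 11 epithelial tumour markers. Their higher level in it was therefore partly set by the naming and is no separate check of the class. Of these markers, 8, 8, 7 and 8 were higher in it than in the other cells. Their summed level was 10529, 7311, 7351 and 9940.5 UMIs per 1000000 UMIs of the class (CPM), against 184 to 232 CPM in the other cells. Krt8, Krt18, Krt19, Krt7, Elf3, Spint2 and Msln were among those higher in all 4 libraries, whereas Epcam had at most 2 UMIs in the tumour cells of a library and Cldn7 had 0 in each. Asf1a stood at 6.75 CPM in KO anti-PD-1 tumour cells (3.59 to 11.5) and 9.91 CPM in KO IgG tumour cells (6.59 to 14.3), against 30.8 CPM in WT anti-PD-1 tumour cells (23.2 to 40.1) and 34.3 CPM in WT IgG tumour cells (26.5 to 43.6). These 3′ tags need not cover the edited part of the gene, which the labels do not give. Values in brackets are exact 95% intervals, which cover counting error only, since each group was 1 library and no test between groups was possible. Fewer cells with a transcript and less of it per cell cannot be told apart in sums over cells.

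RNA of immune cells was present in the tumour class, and its levels stand beside the results because host immune cells carry more of most of the 10 transcripts, Psmb10 being the exception. All 7 immune markers checked (Ptprc, Cd3e, Cd79a, S100a8, C1qa, Lyz2 and Nkg7) had UMIs in the tumour cells of every library, with a sum of 739.6 CPM in KO anti-PD-1, 582 CPM in KO IgG, 871 CPM in WT anti-PD-1 and 1171 CPM in WT IgG, against 16715 to 23346 CPM in the other cells. From transcripts of other cell types the share of free RNA was put at 12.359%, 4.973%, 6.959% and 8.994% in the same order, and the level that share would give is named below as the free RNA level. The share was the median over 6 lists of transcripts, which ranged from 3.3% to 57.504%, so the free RNA level is rough.

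In tumour cells the heavy chains were lowest in KO IgG and several times higher in KO anti-PD-1. H2-K1, the heavy chain of the Kb molecule, stood at 298 CPM in KO anti-PD-1 (274 to 323) and 63.4 CPM in KO IgG (54.4 to 73.4), and at 378 CPM in WT anti-PD-1 (349.9 to 407) and 231 CPM in WT IgG (209.6 to 253). KO anti-PD-1 exceeded KO IgG 4.7-fold, a log2 ratio of 2.23 (1.99 to 2.48), and WT anti-PD-1 exceeded WT IgG by a log2 ratio of 0.71 (0.54 to 0.89). No 2 of the 4 intervals overlapped, and KO tumour cells were below WT tumour cells under either antibody. The log2 ratio of KO to WT was -0.34 under anti-PD-1 (-0.51 to -0.18) and -1.86 under IgG (-2.12 to -1.61). At least 1 UMI of H2-K1 was found in 69.5%, 40.3%, 78.6% and 74.4% of tumour cells, and in 19.3%, 8.87%, 38.4% and 26.7% after each cell was thinned to 1000 UMIs. The free RNA level of H2-K1 was 162, 43.4, 113 and 121 CPM, below the measured level in each library.

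H2-D1, the heavy chain of the Db molecule, had 1319 CPM in KO anti-PD-1 (1268 to 1371) and 273 CPM in KO IgG (254 to 293), and 936 CPM in WT anti-PD-1 (892 to 982) and 574 CPM in WT IgG (541 to 609). Its log2 ratio was 2.27 for KO anti-PD-1 over KO IgG (2.16 to 2.39) and 0.71 for WT anti-PD-1 over WT IgG (0.6 to 0.82). Unlike H2-K1, it was higher in KO than in WT under anti-PD-1, by 0.49 (0.41 to 0.58), and lower under IgG, by -1.07 (-1.21 to -0.94). The excess under anti-PD-1 was 0.03 when each cell was given equal weight and 0.04 after thinning, so it depended on the weight of cells. H2-K1, H2-D1 and the other class I heavy chain genes are close relatives whose reads can be confused, and the sources used here do not say how reads that fit several genes were treated.

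B2m, the light chain shared by all class I molecules, followed the same order over the libraries as H2-D1. It stood at 3482 CPM in KO anti-PD-1 (3399 to 3567) and 947 CPM in KO IgG (912 to 984), and at 2573 CPM in WT anti-PD-1 (2499 to 2649) and 1379 CPM in WT IgG (1327 to 1432). The log2 ratio was 1.88 for KO anti-PD-1 over KO IgG (1.81 to 1.94) and 0.90 for WT anti-PD-1 over WT IgG (0.83 to 0.97). Between genotypes it was 0.44 under anti-PD-1 (0.38 to 0.49) and -0.54 under IgG (-0.62 to -0.46), and neither passed 1.5-fold. B2m was found in 98.5%, 92.8%, 95.5% and 96.7% of tumour cells, and its free RNA level of 574, 167, 364 and 394 CPM was well under the measured one.

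The transporter genes were sparse in tumour cells. Tap1 gave 6, 7, 13 and 13 UMIs in KO anti-PD-1, KO IgG, WT anti-PD-1 and WT IgG, or 3.11, 2.48, 7.28 and 6.75 CPM, against a free RNA level of 10.6, 2.38, 7.24 and 6.48 CPM, which lies above the measured interval in KO anti-PD-1 and within it in the other 3 libraries. Its level in tumour cells could therefore not be set apart from free RNA at this depth. Tap2 gave 30, 7, 29 and 18 UMIs, or 15.6, 2.48, 16.2 and 9.35 CPM, against a free RNA level of 10.8, 3.22, 7.28 and 7.22 CPM. That level lies within the measured interval in KO anti-PD-1 (10.5 to 22.2), KO IgG (0.996 to 5.11) and WT IgG (5.54 to 14.8). Only in WT anti-PD-1 (10.9 to 23.3) was Tap2 set apart from free RNA. The log2 ratio of Tap2 was 2.65 for KO anti-PD-1 over KO IgG (1.44 to 4.08) and -1.92 for KO IgG over WT IgG (-3.42 to -0.59). The KO IgG level was under that of free RNA, and the part of free RNA in these ratios was not tested. Tapbp was better covered, with 75.3 CPM in KO anti-PD-1 (63.5 to 88.6) and 42.8 CPM in KO IgG (35.5 to 51.2), and 80.0 CPM in WT anti-PD-1 (67.5 to 94.3) and 62.3 CPM in WT IgG (51.7 to 74.5). KO IgG stood below the other 3 libraries for tapasin, by a log2 ratio of -0.54 against WT IgG (-0.92 to -0.16), and KO anti-PD-1 exceeded KO IgG by 0.81 (0.45 to 1.17). The other 3 libraries had overlapping intervals. Free RNA would give tapasin 18.8, 5.55, 11.8 and 12.6 CPM.

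Of the immunoproteasome subunits, Psmb10 was clearly above its free RNA level and the other two were not clearly so. Psmb10, which replaces Psmb7, had 206 CPM in KO anti-PD-1 (186 to 227) and 84.6 CPM in KO IgG (74.2 to 96.1), and 253 CPM in WT anti-PD-1 (230.2 to 277) and 159 CPM in WT IgG (142 to 178), against a free RNA level of 25.7, 6.16, 15.2 and 15.4 CPM. Its log2 ratio was 1.28 for KO anti-PD-1 over KO IgG (1.05 to 1.52), 0.67 for WT anti-PD-1 over WT IgG (0.46 to 0.88) and -0.91 for KO IgG over WT IgG (-1.16 to -0.66). Set against Psmb7 within each library, which takes out any scaling, there were 0.794 UMIs of Psmb10 per UMI of Psmb7 in KO anti-PD-1 (0.694 to 0.907) and 0.313 in KO IgG (0.27 to 0.363), and 0.97 in WT anti-PD-1 (0.85 to 1.11) and 0.725 in WT IgG (0.624 to 0.842). The 3 constitutive subunits themselves, Psmb5, Psmb6 and Psmb7, had log2 ratios between -0.19 and 0.46 in the 4 comparisons, with 0 past 1.5-fold. Of the 11 other subunits of the proteasome core, 0 passed 1.5-fold in each comparison.

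Psmb8, which replaces Psmb5, stood at 40.0 CPM in KO anti-PD-1 (31.5 to 50) and 17.3 CPM in KO IgG (12.8 to 22.9), and at 48.7 CPM in WT anti-PD-1 (39.0 to 60.1) and 32.2 CPM in WT IgG (24.7 to 41.3). Free RNA would give 63.6, 17.0, 38.4 and 41.0 CPM, which was above the measured interval in KO anti-PD-1, within it in KO IgG and WT IgG, and just below it in WT anti-PD-1. Its ratio to Psmb5 was 0.145 in KO anti-PD-1 and 0.0638 in KO IgG, against 0.155 in WT anti-PD-1 and 0.121 in WT IgG. With free RNA subtracted the ratio was 0 in KO anti-PD-1 and 0.00125 in KO IgG, against 0.0347 in WT anti-PD-1 and 0 in WT IgG. The excess of KO anti-PD-1 over KO IgG was lost under this subtraction. It stayed in tumour cells with fewer than 10 immune marker UMIs per 10000, at 0.0987 (0.071 to 0.134) against 0.0392 (0.0261 to 0.0568). Without sub-cluster 0, described below, it was 0.106 (0.0775 to 0.141) against 0.0453 (0.0312 to 0.0639). In KO anti-PD-1 cells with few immune marker UMIs, Psmb8 stood at 27.7 CPM (20.2 to 37.1), not above its free RNA level of 31.4 CPM. Psmb9, which replaces Psmb6, gave 29, 4, 18 and 24 UMIs, or 15.1, 1.42, 10.1 and 12.5 CPM, under its free RNA level of 26.8, 6.77, 17.6 and 18.1 CPM in each library. Its log2 ratios, 3.41 for KO anti-PD-1 over KO IgG (1.9 to 5.38) and -3.14 for KO IgG over WT IgG (-5.13 to -1.6), rest on the 4 UMIs of KO IgG. The part of free RNA in both genes was not tested.

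Nlrc5, the regulator of class I transcription, was detected at 22, 7, 13 and 9 UMIs in KO anti-PD-1, KO IgG, WT anti-PD-1 and WT IgG. These correspond to 11.4 CPM (7.16 to 17.3), 2.48 CPM (0.996 to 5.11), 7.28 CPM (3.87 to 12.4) and 4.67 CPM (2.14 to 8.87), with a free RNA level of 3.55, 0.895, 2.49 and 2.26 CPM. KO anti-PD-1 exceeded KO IgG by a log2 ratio of 2.2 (0.93 to 3.67), and the intervals of the other 3 pairs compared overlapped, among them KO anti-PD-1 and WT anti-PD-1 with a log2 ratio of 0.65 (-0.4 to 1.76).

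**Figure D1:**
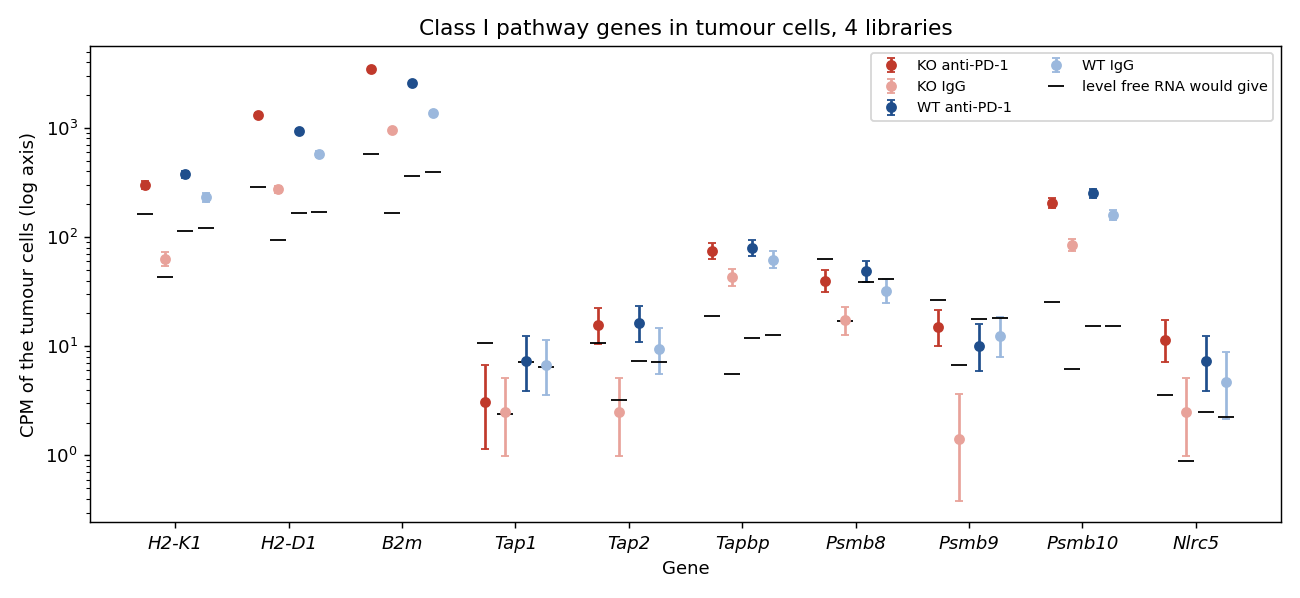
Level of each of the 10 genes in tumour cells, in CPM on a log axis, for KO anti-PD-1, KO IgG, WT anti-PD-1 and WT IgG, with exact 95% Poisson intervals as bars and the free RNA level marked. H2-D1 stood at 1319, 273, 936 and 574 CPM in that order, and the free RNA level of Psmb9 lies above its measured level in each library.

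Counted together, most of the 10 genes were lower in KO IgG than in WT IgG, and most were higher in KO anti-PD-1 than in KO IgG. A gene was counted when it had at least 20 UMIs over both libraries and differed by at least 1.5-fold. In KO IgG against WT IgG, 7 of 9 genes counted were lower and 0 higher, where 15.8% of all genes tested were lower and 15.5% higher, and the median log2 ratio was -1.07, against 0.03 over all genes tested. In KO anti-PD-1 against KO IgG, 9 of 9 were higher, where 10.0% of all genes tested were higher, with a median of 2.2 against -0.1. In WT anti-PD-1 against WT IgG, 7 of 10 were higher, where 8.16% of all genes were higher, with a median of 0.65 against -0.01. In KO anti-PD-1 against WT anti-PD-1, 1 of 9 (Nlrc5) was higher and 0 lower, where 12.7% and 17.8% of all genes were, with a median of -0.06 against -0.07. Each library enters 2 of the 4 comparisons, so the comparisons are not independent of one another.

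These counts were taken again in the tumour cells with fewer than 10 immune marker UMIs per 10000 UMIs, of which there were 98, 183, 79 and 81 in KO anti-PD-1, KO IgG, WT anti-PD-1 and WT IgG. Shares of all genes were not taken for this or the other settings below. How far these counts exceed a general shift is therefore not known. There, 4 of 6 genes were lower in KO IgG than in WT IgG, 8 of 8 were higher in KO anti-PD-1 than in KO IgG, and 6 of 7 were higher in WT anti-PD-1 than in WT IgG. The medians were -0.86, 2.02 and 0.74. H2-K1 was at 237 CPM in KO anti-PD-1 and 51.7 CPM in KO IgG in these cells, and at 333 CPM in WT anti-PD-1 and 179 CPM in WT IgG. With free RNA subtracted, 7 of 8 genes were higher in KO anti-PD-1 than in KO IgG, with Psmb8 at 0 in KO anti-PD-1 and Psmb9 at 0 in both. In the same way 5 of 8 were lower and 1 higher in KO IgG than in WT IgG, and 7 of 9 were higher and 1 lower in WT anti-PD-1 than in WT IgG. The minimum of UMIs was applied before subtraction, so these counts partly compare values near 0. Psmb8, the 1 higher gene, had 0.921 UMIs left in KO IgG against 0 in WT IgG. Tap2 in KO IgG stood at 2.48 CPM, under its free RNA level of 3.22 CPM. Tap1 stood at 2.48 CPM in KO IgG and 7.28 CPM in WT anti-PD-1, against free RNA levels of 2.38 and 7.24 CPM. A stricter limit of no immune marker UMI at all left 11, 14, 5 and 7 cells, in which KO anti-PD-1 was not above KO IgG. H2-K1 gave 3 UMIs in KO anti-PD-1 against 18 in KO IgG, a log2 ratio of -2.05 (-4.45 to -0.27), and B2m gave 88 against 148, a ratio of -0.21 (-0.61 to 0.18). In these cells the 10 genes summed to 34.8 UMIs per 10000 in KO anti-PD-1 and 42.8 in KO IgG, where 1 cell held 87 of the 205 UMIs. Without that cell KO IgG stood at 31.1, below the 34.8 of KO anti-PD-1. With the richest cell of each library left out, KO IgG at 31.1 stayed above KO anti-PD-1 at 26.0. The order thus held when both libraries lost their richest cell and turned when KO IgG alone did. With every cell given equal weight, 2 of 10 genes were higher and 1 lower in WT anti-PD-1 than in WT IgG.

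**Figure D2:**
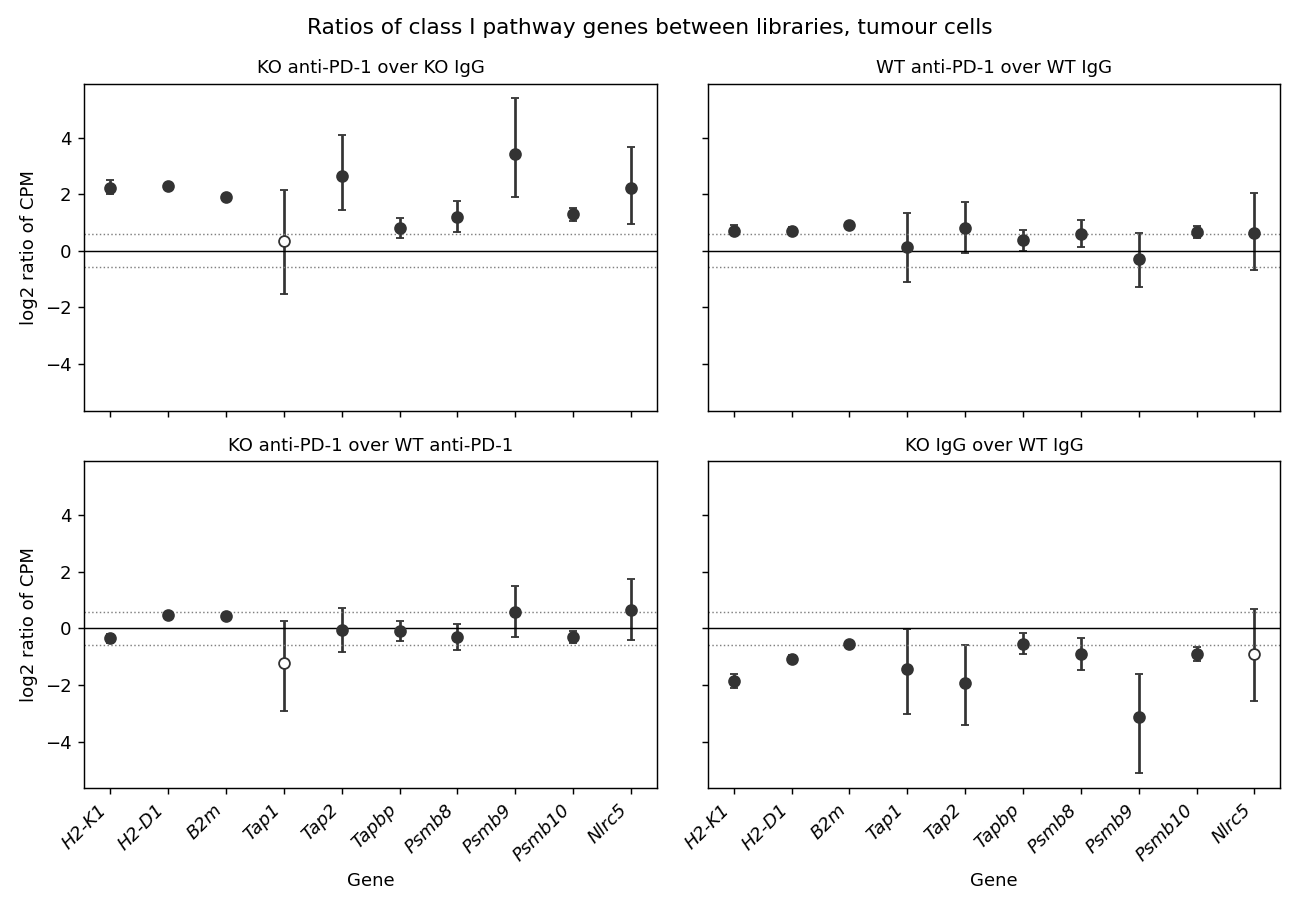
Log2 ratio of each gene in tumour cells between libraries, for the 4 comparisons, with exact 95% conditional intervals of 2 Poisson counts as bars and lines at 1.5-fold. In KO anti-PD-1 against KO IgG the 9 genes with enough UMIs lie between 0.81 and 3.41, and in KO IgG against WT IgG between -3.14 and -0.54.

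The spread among tumour cells was wide in every library. The summed level of the 10 genes in a cell had a median of 46.2 UMIs per 10000 in KO anti-PD-1, 11.5 in KO IgG, 39.2 in WT anti-PD-1 and 24.8 in WT IgG. It ran from 0 to 207 in KO anti-PD-1, to 154 in KO IgG, to 239 in WT anti-PD-1 and to 192 in WT IgG, so the groups overlapped over most of their range. The WT IgG median was exceeded by 74.0% of KO anti-PD-1 cells (65.7% to 81.3%), 20.8% of KO IgG cells (15.7% to 26.8%) and 70.5% of WT anti-PD-1 cells (61.2% to 78.8%). Few cells lacked all 10 transcripts, at 1, 9, 3 and 3 cells. The single richest cell held 6.64%, 3.77%, 7.73% and 6.5% of the UMIs of these genes in the tumour cells of its library. The 5 richest cells together held 25.6%, 13.8%, 26.3% and 25.1%, an unevenness that the counting intervals do not cover. Across cells of at least 1000 UMIs the level of B2m correlated with that of the heavy chains with Pearson r of 0.66, 0.43, 0.77 and 0.64 (119, 203, 99 and 105 cells), cells that share library and depth. The correlation of the summed level with immune marker UMIs was 0.22, 0.12, 0.13 and 0.39 in the same cells.

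**Figure D3:**
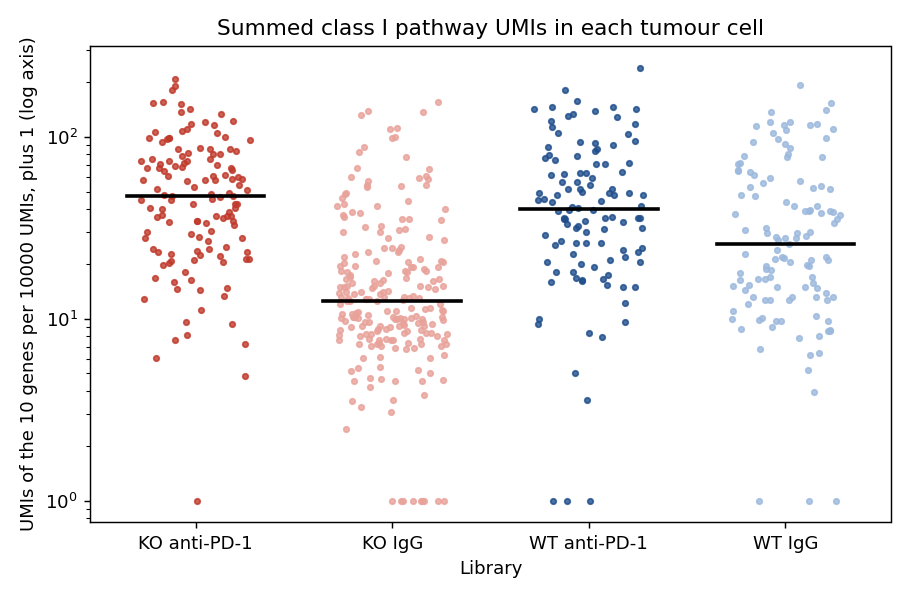
Summed UMIs of the 10 genes per 10000 UMIs in each tumour cell, for KO anti-PD-1, KO IgG, WT anti-PD-1 and WT IgG, each point 1 cell and the line the median. Medians were 46.2, 11.5, 39.2 and 24.8, and the lowest cell was at 0 in each library.

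The differences were also seen within the sub-clusters of tumour cells that had enough cells to compare. Among sub-clusters with at least 10 cells in both libraries, the summed level was higher in KO anti-PD-1 than in KO IgG in 6 of 6, higher in WT anti-PD-1 than in WT IgG in 5 of 5, and lower in KO IgG than in WT IgG in 4 of 4. It was higher in KO anti-PD-1 than in WT anti-PD-1 in 5 of 6. The libraries differed in their make-up of sub-clusters. Sub-cluster 4 held 17, 2, 17 and 20 cells in KO anti-PD-1, KO IgG, WT anti-PD-1 and WT IgG, so it entered no comparison with KO IgG. Sub-clusters 6 and 7 held 38 and 42 cells in KO IgG but 4 and 5 in WT IgG, and were left out of that comparison. Sub-cluster 0 (23, 24, 25 and 32 cells) carried the most immune marker RNA of those of at least 10 cells, with a median of 35.6, 87.4, 83.8 and 119 UMIs per 10000, and had 9288, 3236, 6375 and 4726 CPM of the 10 genes. It held 33.8%, 30.6%, 64.4% and 41.9% of the Psmb8 UMIs of all tumour cells. Without sub-cluster 0 the median log2 ratio was 1.87 for KO anti-PD-1 over KO IgG, 0.7 for WT anti-PD-1 over WT IgG and -0.81 for KO IgG over WT IgG, while Psmb8 alone turned to -0.07 for WT anti-PD-1 over WT IgG. Without sub-cluster 4, 4 of 9 genes were higher in WT anti-PD-1 than in WT IgG and 8 of 9 in KO anti-PD-1 than in KO IgG. In the same way 7 of 8 were lower in KO IgG than in WT IgG. No share of all genes was taken there.

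The balance between the heavy chains differed between KO and WT tumour cells under both antibodies. Tumour cells held 0.226 UMIs of H2-K1 per UMI of H2-D1 in KO anti-PD-1 (0.206 to 0.247) and 0.232 in KO IgG (0.196 to 0.274), and 0.404 in WT anti-PD-1 (0.369 to 0.442) and 0.402 in WT IgG (0.359 to 0.449). The KO ratio was 0.559 of the WT ratio under anti-PD-1 and 0.577 of it under IgG, while the anti-PD-1 ratio was 0.974 of the IgG ratio in KO and 1.0 of it in WT. Both KO libraries overlapped each other, both WT libraries overlapped each other, and the genotypes did not overlap. In tumour cells with few immune marker UMIs the ratio was 0.202, 0.2, 0.374 and 0.337 in the order KO anti-PD-1, KO IgG, WT anti-PD-1 and WT IgG, and without sub-cluster 0 it was 0.202, 0.191, 0.346 and 0.343. With free RNA subtracted it was 0.132, 0.112, 0.345 and 0.271, and the KO ratio was 0.383 of the WT ratio under anti-PD-1 and 0.413 of it under IgG. Within sub-clusters holding at least 50 UMIs of the pair in both libraries it was lower in KO in 5 of 6 under anti-PD-1 and in 5 of 5 under IgG. Host cells of the same lungs, which carry no knockout, also had lower ratios in the KO IgG library, at 0.666 of the WT ratio in monocytes and macrophages, 0.718 in neutrophils, 0.764 in dendritic cells, 0.781 in plasma cells, 0.894 in NK cells, 0.898 in T cells and 0.909 in B cells. Under anti-PD-1 the host classes lay between 0.793 in plasma cells and 1.16 in B cells. A difference of library and one of genotype cannot be told apart with 1 library per group, and neither was tested.

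**Figure D4:**
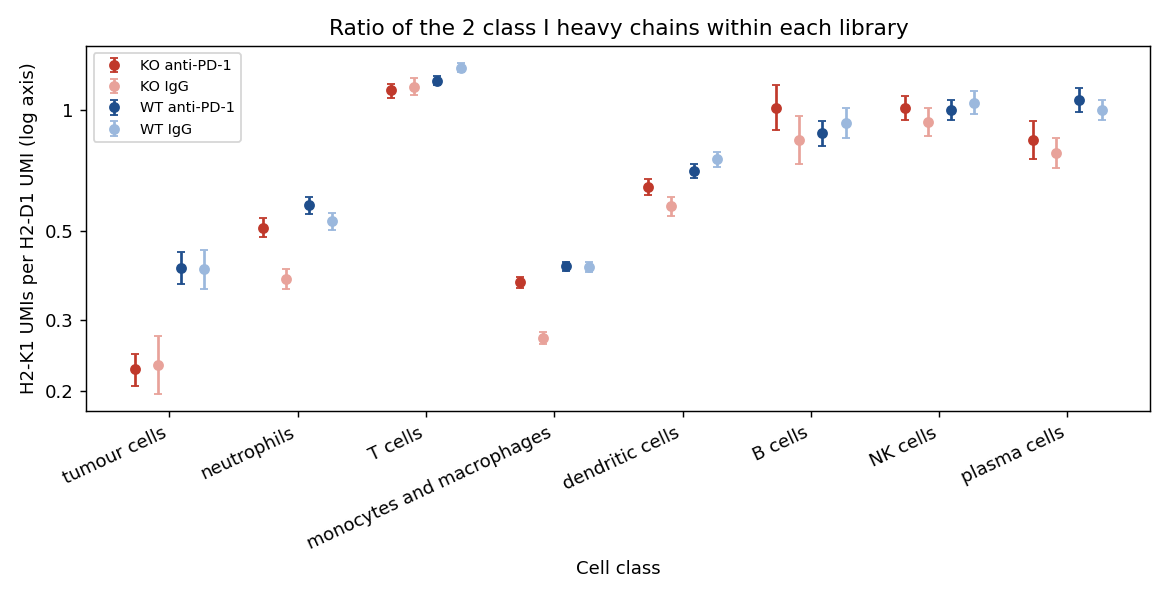
UMIs of H2-K1 per UMI of H2-D1 in each cell class and library, with exact 95% intervals as bars. In tumour cells the ratio was 0.226 and 0.232 in KO anti-PD-1 and KO IgG, against 0.404 and 0.402 in WT anti-PD-1 and WT IgG.

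B2m was present in excess of the heavy chains in tumour cells, at 2.15, 2.82, 1.96 and 1.71 UMIs of B2m per UMI of H2-K1 and H2-D1 together in KO anti-PD-1, KO IgG, WT anti-PD-1 and WT IgG. The same ratio ran from 0.953 in KO anti-PD-1 neutrophils to 1.47 in WT anti-PD-1 dendritic cells over the host classes other than plasma cells, where it was 2.26 to 2.76. The scale is UMIs, and a UMI of one gene need not be caught as often as that of another.

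Other genes of the pathway were counted in tumour cells in the same way, against the same shares of all genes, with 17.6% of all genes lower in KO anti-PD-1 than in KO IgG and 10.3% lower in WT anti-PD-1 than in WT IgG. Of 14 further class I heavy chains in the feature table, 4 had enough UMIs in KO IgG against WT IgG and 3 of these were lower, with H2-T22 at a log2 ratio of -1.66, H2-Q7 at -1.59 and H2-M3, which presents formylated peptides, at 0.18. In KO anti-PD-1 against KO IgG, 3 of 4 were higher, with H2-T22 at 1.57 and H2-Q7 at 1.18, and in WT anti-PD-1 against WT IgG 0 of 5 passed 1.5-fold in either direction. Among the chaperones and peptide trimming enzymes of the endoplasmic reticulum few genes passed 1.5-fold. In KO IgG against WT IgG, 1 of 9 was lower, which was Erap1, the trimming peptidase, at -1.09 (-1.99 to -0.22). In KO anti-PD-1 against KO IgG 2 were higher and 2 lower, with Canx, the chaperone calnexin, at -0.63 (-0.81 to -0.44). The intervals of the 2 higher genes included 0, with Erap1 at 0.75 (-0.18 to 1.69) on 23 against 20 UMIs and Tapbpl at 0.7 (-0.09 to 1.49). Of the proteasome activator genes, Psme1 and Psme2, which form the interferon-inducible cap, had -0.63 and -0.61 in KO IgG against WT IgG and 0.61 and 0.88 in KO anti-PD-1 against KO IgG. Psme4, which encodes another cap, was lower in KO anti-PD-1 than in KO IgG at -1.38.

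Among 12 transcription factor genes with enough UMIs, 3 were lower and 2 higher in KO IgG than in WT IgG, and 4 were higher in KO anti-PD-1 than in KO IgG. Irf1, a factor induced by interferon gamma, had 36.9 CPM in KO anti-PD-1 and 18.1 CPM in KO IgG, against 41.4 CPM in WT anti-PD-1 and 32.7 CPM in WT IgG. Its log2 ratio was -0.86 for KO IgG over WT IgG and 1.03 for KO anti-PD-1 over KO IgG. Subunits of the factors that bind class I promoters did not share a direction, with Nfya at 1.01 in KO IgG against WT IgG. Socs1, the feedback inhibitor of interferon signalling, had a log2 ratio of -1.27 in KO IgG against WT IgG (-2.34 to -0.25), on 14 against 23 UMIs. In KO anti-PD-1 against KO IgG it was 1.7 (0.75 to 2.72), on 31 against 14 UMIs.

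Class II genes, which professional antigen-presenting cells carry, passed 1.5-fold in the same comparisons, where 6 of 6 were lower in KO IgG than in WT IgG (median -1.41) and 6 of 6 higher in KO anti-PD-1 than in KO IgG (median 1.87). Cd74, the invariant chain, had 673 CPM in KO anti-PD-1 and 128 CPM in KO IgG, against 443 CPM in WT anti-PD-1 and 367 CPM in WT IgG tumour cells. Whether this RNA came from tumour cells or from immune cells was not tested. In KO anti-PD-1 against WT anti-PD-1 the lists of the pathway had medians between -0.58 for the endoplasmic reticulum chaperones, of which 4 of 9 were lower, and 0.24 for class II.

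Across the cell classes of these lungs, tumour cells were last in the order of levels for 9 of the 10 genes. NK cells were highest for H2-K1 (mean of 4 libraries 2397 CPM), with T cells next at 2136 CPM and tumour cells at 243 CPM. Monocytes and macrophages were highest for H2-D1 (3318 CPM), B2m (5435 CPM) and Psmb10 (225 CPM), and T cells for Nlrc5 (63.3 CPM). The range of the highest class over the libraries overlapped that of the next class for H2-K1, B2m and Psmb10. For H2-D1 and Nlrc5 it did not. Dendritic cells were highest for Psmb8 (999 CPM), Psmb9 (489 CPM), Tap1 (149 CPM), Tap2 (144 CPM) and Tapbp (191 CPM). For Psmb8 and Psmb9 the range of dendritic cells over the libraries did not overlap that of T cells, next in order, whereas for the transporter genes and tapasin neighbouring classes overlapped. Psmb10 was the exception, with tumour cells at place 5 of 8 classes at 176 CPM, above B cells (156 CPM), neutrophils (114 CPM) and plasma cells (66.3 CPM).

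The gap between tumour cells and host classes was narrowest in the anti-PD-1 libraries for the heavy chains and B2m. H2-D1 in tumour cells was 0.636 of the median host class in KO anti-PD-1 and 0.175 of it in KO IgG, against 0.438 in WT anti-PD-1 and 0.335 in WT IgG. B2m was at 0.7, 0.25, 0.495 and 0.293 of that median in the same order, and H2-K1 at 0.222, 0.0622, 0.259 and 0.176. Psmb8 stayed at 0.0774, 0.0486, 0.111 and 0.0774 of it. In KO anti-PD-1, 6 of the 7 host classes had more H2-D1, B2m and Nlrc5 than tumour cells, and in the other 3 libraries all 7 did.

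**Figure D5:**
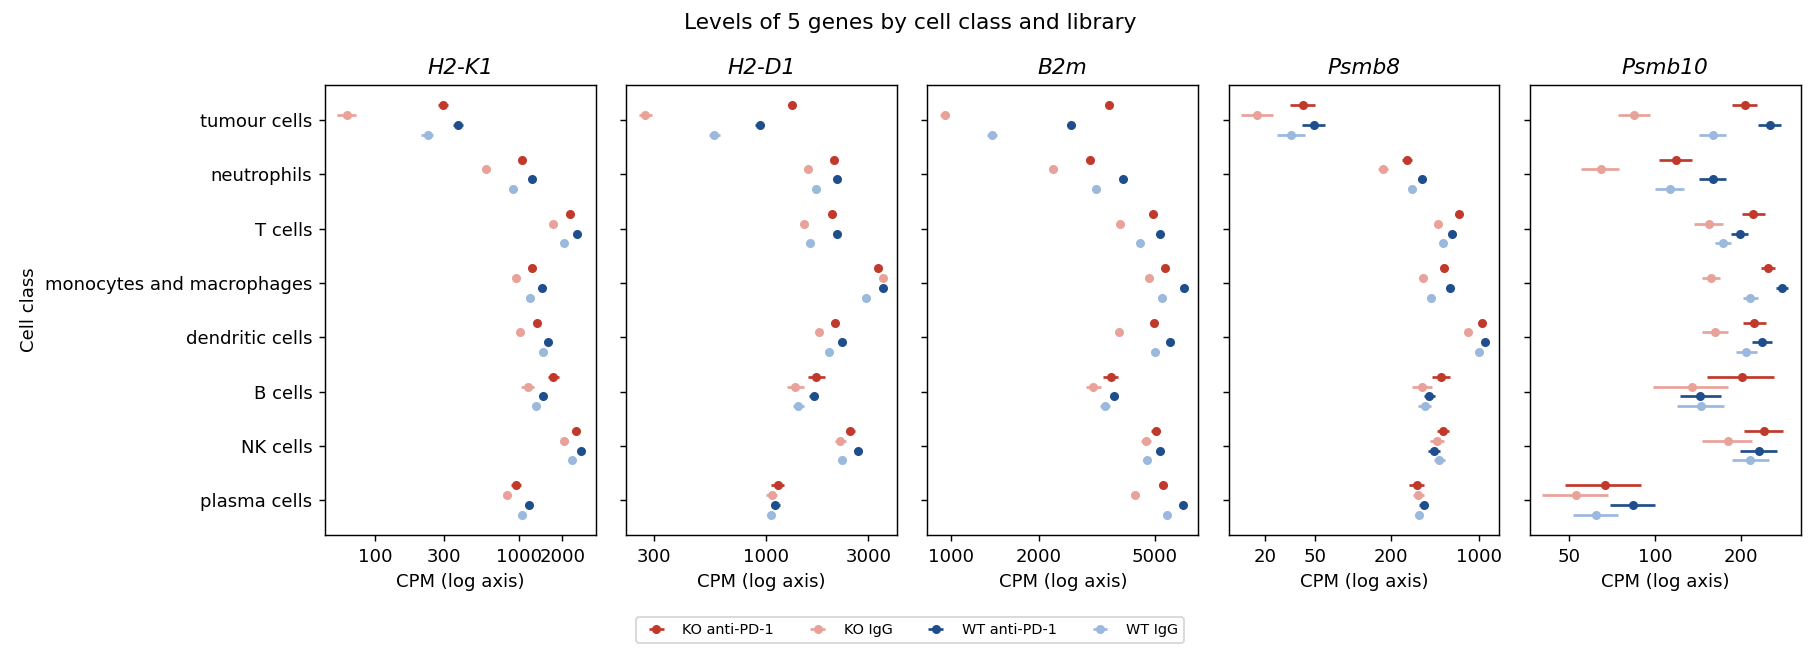
Levels of 5 of the genes in 8 cell classes on a log axis in CPM, 1 point per library (KO anti-PD-1, KO IgG, WT anti-PD-1 and WT IgG) with exact 95% Poisson intervals as bars. Tumour cells lie below the host classes for H2-K1, with 63.4 to 378 CPM against 593 CPM or more in every other class and library.

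Host classes had smaller medians than tumour cells, of the same sign, for KO IgG against WT IgG and for KO anti-PD-1 against KO IgG. In neutrophils, 5 of 10 genes were lower in KO IgG than in WT IgG, where 10.4% of all genes tested were lower, among them Tap1 and Psmb10 at a log2 ratio of -0.81 each. In the same cells 6 of 10 were higher in KO anti-PD-1 than in KO IgG, where 10.4% of all genes were higher, led by Tap1 at 1.27, and 2 of 10 were higher in WT anti-PD-1 than in WT IgG, where 5.53% were. Tap1 stood at 75.2 CPM in KO anti-PD-1 and 31.1 CPM in KO IgG neutrophils, against 89.9 CPM in WT anti-PD-1 and 54.4 CPM in WT IgG neutrophils. In monocytes and macrophages, 2 of 10 were lower in KO IgG than in WT IgG (Tap1 at -0.72 and Psmb9 at -0.62), where 4.93% of all genes were lower, and 4 of 10 were higher in KO anti-PD-1 than in KO IgG, where 5.95% were higher, with Tap1 at 1.18. There, 2 of 10 were higher in WT anti-PD-1 than in WT IgG (Tap1 at 0.73 and Nlrc5 at 0.81), where 4.97% were.

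The lymphoid and dendritic classes had few genes past 1.5-fold. In KO anti-PD-1 against KO IgG, T cells had 2 of 10 higher (Tap1 at 0.84 and Psmb9 at 0.67), where 12.0% of all genes were higher, dendritic cells 1 of 10 (Tapbp at 0.64), where 6.44% were, and B cells 2 of 9 (H2-K1 at 0.59 and Psmb9 at 0.61), where 12.3% were. The shares in T cells, dendritic cells and B cells are near those of all genes. In NK cells only Nlrc5 passed 1.5-fold in KO IgG against WT IgG, a share near the 9.86% of all genes that were higher. It rested on 26 UMIs against 24, with a log2 ratio of 0.7 and an interval that includes 0 (-0.16 to 1.56). In plasma cells, where Nlrc5 stood at 8.22 to 15.2 CPM over the libraries, it was lower in KO IgG than in WT IgG. The log2 ratio there was -0.68, where 9.68% of all genes were lower. Plasma cells also had less Nlrc5 in KO anti-PD-1 than in WT anti-PD-1, at -0.78, where 18.6% of all genes were lower. The other comparisons of host classes had 0 of the 10 genes past 1.5-fold. The median log2 ratio over the 10 genes for KO anti-PD-1 over KO IgG was 0.73 in neutrophils, 0.5 in monocytes and macrophages, 0.41 in T cells, 0.38 in dendritic cells, 0.32 in B cells, 0.13 in NK cells and 0.09 in plasma cells, beside 2.2 in tumour cells. For KO IgG over WT IgG it ran from -0.55 in neutrophils to -0.02 in NK cells, beside -1.07 in tumour cells. The difference in size between classes was not tested.

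Over the 32 combinations of class and library, the genes most like the mean of the 10 members were Arhgap30 and H2-T23 (Pearson r 0.905 each), H2-Q4 (0.9), Itga4 (0.881), Crem (0.88), Ptpn18 (0.879), Gpr171 (0.876) and Cd48 (0.866), out of 2386 genes ranked. The 32 points share libraries, depth and the step between tumour and host cells, so the values are descriptive. Each member was also set against the mean of the other members. Tap2 and Psmb8 were closest to the rest, at 0.947 each, and Psmb10 stood apart at 0.377.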

How the data were processed

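The deposited values are counts of UMIs per gene and cell, from 4 libraries, and the file headers name Cell Ranger 3.0.0 as the program that wrote them. The submitters' processing notes name bcl2fastq and the human build hg19, while all 31053 gene identifiers are mouse ones, so the build is not established and no coordinate comes from these files. The barcode list fits 1 of the 4 matrices, so barcodes shared between libraries were not counted. Cells with under 200 genes, over 10% mitochondrial UMIs or a Scrublet score over 0.25 were removed, and the rest were clustered together (scanpy 1.11.5, 2000 variable genes, 30 components, 15 neighbours, Leiden resolution 1, igraph 0.11.9) without batch correction. Clusters were named from 31 marker lists by a rule chosen after seeing the data, so cell classes are rebuilt here, and 8 classes had at least 50 cells in each library.

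Sums of UMIs over the cells of a class in a library were divided by their total (CPM). Each group is 1 library, so ratios of 2 libraries have exact 95% counting intervals and no test. Ratios were computed over all genes with at least 20 UMIs over both libraries, and called at 1.5-fold. Free RNA shares came from transcripts of other cell types. The ratios and intervals were checked on simulated Poisson counts of class sums. Such counts hold no spread between cells, so the check cannot show how the intervals fare with that spread. Alternatives included edgeR 4.0.16 (TMM) and DESeq2 1.42.0 size factors. The members and lists were chosen with earlier results of these data known. All members were named in tumour cells. From each other class and each pathway list, the largest and smallest ratios were named, at most 3 per comparison, and 8 genes most like the members were named by Pearson r among those of at least 50 CPM. Irf1, Psme1, Psme2 and Cd74 values beyond that rule were chosen after they were seen. Some results that the rule covers are not reported here.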

Additional observations from a re-analysis of the deposited data

Results flagged for a closer look

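The ratio of KO to WT tumour cells had opposite signs under the 2 antibodies for H2-D1 and for B2m, with counting intervals that exclude 0 on both sides. For H2-D1 the log2 ratio was 0.49 under anti-PD-1 and -1.07 under IgG. For B2m it was 0.44 under anti-PD-1 and -0.54 under IgG. With 1 library per group the difference between antibodies was not tested. When each tumour cell had equal weight, the ratio under anti-PD-1 was 0.03 for H2-D1 and 0.3 for B2m, and after thinning each cell to 1000 UMIs it was 0.04 and 0.25.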

How the results depend on the processing

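The median log2 ratio over the members in tumour cells was recomputed under 23 alternatives, of which the limit of 10 immune marker UMIs per 10000, the inclusion of an unnamed epithelial sub-cluster and leaving out each sub-cluster were added after seeing the data. Apart from the cells with no immune marker UMI, it ran from -1.11 to -0.76 for KO IgG over WT IgG, from 0.41 to 0.96 for WT anti-PD-1 over WT IgG, from 1.46 to 2.3 for KO anti-PD-1 over KO IgG and from -0.31 to 0.41 for KO anti-PD-1 over WT anti-PD-1. Subtracting free RNA gave 0.96 for WT anti-PD-1 over WT IgG. In the 11, 14, 5 and 7 cells with no immune marker UMI, 2 or 3 members could be counted, and the medians were 0.79 for KO IgG over WT IgG, -0.32 for KO anti-PD-1 over KO IgG and -0.43 for KO anti-PD-1 over WT anti-PD-1. There H2-K1 was 0.89 and H2-D1 0.46 for KO IgG over WT IgG, and H2-K1 was -2.05, H2-D1 -0.32 and B2m -0.21 for KO anti-PD-1 over KO IgG. Thinning gave Tap1 0.05 for KO IgG over WT IgG, and Psmb8 -1.65 and Nlrc5 -0.92 for WT anti-PD-1 over WT IgG. For the same comparison Psmb8 was -0.39 as a mean over cells and -0.07 without sub-cluster 0. In the cells with no immune marker UMI, leaving out the richest cell of KO IgG alone put KO IgG below KO anti-PD-1 in summed level (chosen after seeing the data). Leaving out the richest cell of each library kept KO IgG above KO anti-PD-1, at 31.1 against 26.0 UMIs per 10000. The cause of these turns was not tested. The count of members past 1.5-fold moved from 7 of 10 to 2 of 10 higher for WT anti-PD-1 over WT IgG as a mean over cells, and to 4 of 9 without sub-cluster 4. It moved from 7 of 9 to 4 of 6 lower for KO IgG over WT IgG in cells with few immune marker UMIs and without sub-cluster 0. Shares of all genes were not taken under the alternatives. After thinning, 4 of 4 members counted were higher for KO anti-PD-1 over KO IgG and 5 of 5 lower for KO IgG over WT IgG. For KO anti-PD-1 over WT anti-PD-1 the count of higher members was between 0 and 2. Tap1, Tap2, Psmb9 and Nlrc5 had at most 30 UMIs per library, which limits what can be said of them. No paired analysis was possible because each group holds 1 library.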
